A study of Homo sapiens with 5 samples.

Results

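The dual-specificity MAP kinase phosphatases are the enzymes that switch MAP kinases off. The 10 genes described here are DUSP1, DUSP2, DUSP4, DUSP5, DUSP6, DUSP7, DUSP8, DUSP10, DUSP14 and DUSP16. All were found by gene name among the 27992 names in the deposited count table. The set was chosen with earlier results of these data known. Both the count and the TPM table held all 10. In the library with the highest E2F1, DUSP2, DUSP7 and DUSP10 were between 2.51 and 3.42 times the level of the YFP-negative library, DUSP1 was 2.36-fold lower, and DUSP4 and DUSP6 were near the limit of detection throughout.

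The study varied the amount of E2F1, which switches on genes of S-phase entry and, when abundant, of apoptosis, in U2OS, a human osteosarcoma line. Of the 5 RNA-seq libraries, 1 came from parental U2OS without a construct, and 4 from U2OS carrying pTRIPZ-YFP-ER-E2F1, an inducible vector in which YFP and the hormone-binding part of the oestrogen receptor (ER) are fused to E2F1. The construct-bearing cells were sorted on YFP fluorescence into a YFP-negative fraction and 3 gates called YFP-low, YFP-medium and YFP-high. The labels give 1 treatment for all 5 libraries, the parental one included: 500 ng/ml doxycycline for 48 h to induce the transgene, then 90 nM 4-hydroxytamoxifen (OHT) for 20 h to activate the ER fusion, in medium with 8% fetal bovine serum. No library without drug was analysed here, and the sources used here do not say whether the construct-bearing cells were a clone or a pool. YFP-negative cells are thus cells of the construct-bearing line without detectable fusion protein, not cells without the construct.

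Each group held 1 library, so no difference below has a replicate check and no test between samples was made. Each library held 70.7 M to 76.5 M gene reads. Levels are CPM, reads per 1000000 after TMM scaling, which aligns the libraries on the bulk of their genes. E2F1 itself, counted without separating the construct from the cell's own gene, stood at 106 CPM in YFP-negative and 163, 362 and 998 CPM across the low, medium and high gates, beside 85.6 CPM in parental cells, in the order of the gates. Of 10 osteoblast and mesenchymal markers, 6 reached 1 CPM in each library, with summed levels from 3103 CPM in YFP-high to 6159 CPM in parental. The osteoblast markers SP7, IBSP and BGLAP, and COL1A2, stayed under 1 CPM in all libraries. None of 8 leukocyte markers reached 1 CPM, and the epithelial markers KRT19, CLDN4 and GRHL2 had no reads in any library, with summed levels of at most 1.68 CPM for the leukocyte list, 14.4 CPM for the epithelial list and 6.68 CPM for 6 endothelial markers. Single markers did differ. Between YFP-negative and YFP-high the epithelial EPCAM went from 3.28 to 11.6 CPM and was called higher. The endothelial KDR, from 0.0361 to 1.88 CPM, was also called higher. The other epithelial markers that reached 1 CPM in a library, CDH1 (5.14 to 2.53 CPM), KRT5 and KRT14, were lower and not called. Of the other such endothelial markers, TEK and VWF were lower and CLDN5 higher, none of them called. The keratins KRT5 and KRT14 were called lower in YFP-negative than in parental cells, where they stood at 2.65 and 3.86 CPM. COL1A1 and VWF were also called lower in YFP-negative than in parental. The part of these differences in the members' values was not tested. In sorted bulk samples, a change in RNA per cell and a change in the share of cells that express a gene cannot be told apart.

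MAP kinases are active only while a threonine and a tyrosine in their activation loop both carry phosphate, and dual-specificity phosphatases remove both. The typical members pair a catalytic domain with an N-terminal domain that docks on the kinase and sets its preference for ERK (growth factor signalling) or for JNK and p38 (stress signalling). Many are transcribed in response to the kinases they switch off, which makes their mRNA part of a negative feedback loop. They are grouped here by location and preference: nuclear inducible enzymes (DUSP1, DUSP2, DUSP4, DUSP5), cytoplasmic ERK phosphatases (DUSP6, DUSP7), JNK and p38 phosphatases (DUSP8, DUSP10, DUSP16), and the small atypical enzyme DUSP14, which lacks the docking domain. DUSP2 and DUSP4 have been reported as E2F1 target genes in other cells. Reports on the other members are not covered here, so this is not a full list of reported targets.

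DUSP1 was the member that was lower, and DUSP2 and DUSP7 had the largest ratios upwards in YFP-high. DUSP8 was nearly flat and shares a motif with DUSP1. For these 4 members, which did not share a profile, the 250 bases before the annotated transcription start are shown. All were taken from RefSeq in build GRCh38.p14 and are written 5′ to 3′ on the minus strand, where these 4 genes lie. Capitals mark the cAMP response element (CRE) TGACGTCA, a binding motif of CREB and ATF factors.
DUSP1, chr5:172771196-172771445: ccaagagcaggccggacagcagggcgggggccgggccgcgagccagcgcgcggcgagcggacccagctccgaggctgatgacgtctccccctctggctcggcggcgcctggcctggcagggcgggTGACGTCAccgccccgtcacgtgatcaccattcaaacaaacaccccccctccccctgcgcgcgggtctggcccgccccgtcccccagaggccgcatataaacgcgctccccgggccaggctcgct
DUSP2, chr2:96145441-96145690: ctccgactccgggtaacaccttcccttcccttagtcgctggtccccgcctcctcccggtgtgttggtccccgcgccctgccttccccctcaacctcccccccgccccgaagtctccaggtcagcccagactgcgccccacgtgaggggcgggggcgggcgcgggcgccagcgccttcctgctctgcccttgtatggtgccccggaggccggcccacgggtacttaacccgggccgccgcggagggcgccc
DUSP7, chr3:52056572-52056821: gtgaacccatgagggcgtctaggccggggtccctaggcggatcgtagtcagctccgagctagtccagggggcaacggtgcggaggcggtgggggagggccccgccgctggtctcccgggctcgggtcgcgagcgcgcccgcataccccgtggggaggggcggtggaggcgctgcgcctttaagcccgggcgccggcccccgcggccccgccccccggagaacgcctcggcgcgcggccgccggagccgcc
DUSP8, chr11:1572272-1572521: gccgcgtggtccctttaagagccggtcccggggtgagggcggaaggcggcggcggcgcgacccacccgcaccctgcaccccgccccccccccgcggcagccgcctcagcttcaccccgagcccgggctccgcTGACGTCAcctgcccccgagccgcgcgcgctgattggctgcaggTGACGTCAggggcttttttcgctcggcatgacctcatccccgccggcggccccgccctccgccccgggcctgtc

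Windows of 300 bases, from 250 before to 50 after the start, were found for 8 of the 10 members, as 9 windows with 2 for DUSP10. No window was found for DUSP4 or DUSP5, so neither was searched for motifs. The GC content of the 9 windows ran from 55% to 81%, against a median of 58.7% over all 35116 windows of the table. The CRE motif began 125 bases before the start of DUSP1 and 118 and 74 bases before the start of DUSP8, and 1.85% of all windows hold it. The E2F motif in any of 4 spellings (TTTCCCGC, TTTGGCGC, TTTCGCGC, TTTGCCGC) was in none of the members' windows and in 3.31% of all windows, searched on both strands. The AP-1 motif TGANTCA (7.71% of all windows) and the ETS motif CCGGAAGT (4.14%) were likewise in none of the members' windows. A match or its absence describes the letters of these windows only.

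Genes that reached 1 CPM in any library numbered 15099 and were analysed, 8 of the 10 members among them. For this filter CPM was taken from total gene reads, without TMM scaling. DUSP4 and DUSP6 did not reach that level and enter none of the counts below. A difference counted as a call if the log2 ratio, taken with 0.5 CPM added to both levels, was past 2-fold and if the exact 95% interval from the 2 read counts left out no change. In YFP-high against YFP-negative, 3 of 8 members were called higher (DUSP2, DUSP7, DUSP10) and 1 lower (DUSP1), where 20.3% of all analysed genes were called higher and 11.3% lower. Their median log2 ratio was 0.66, beside -0.05 over all analysed genes. With total gene reads in place of TMM, the same 3 and 1 members were called, while the median of all genes shifted by -0.26 on the log2 scale and the share of calls that were higher went from 64.2% to 45.7%.

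**Figure D1:**
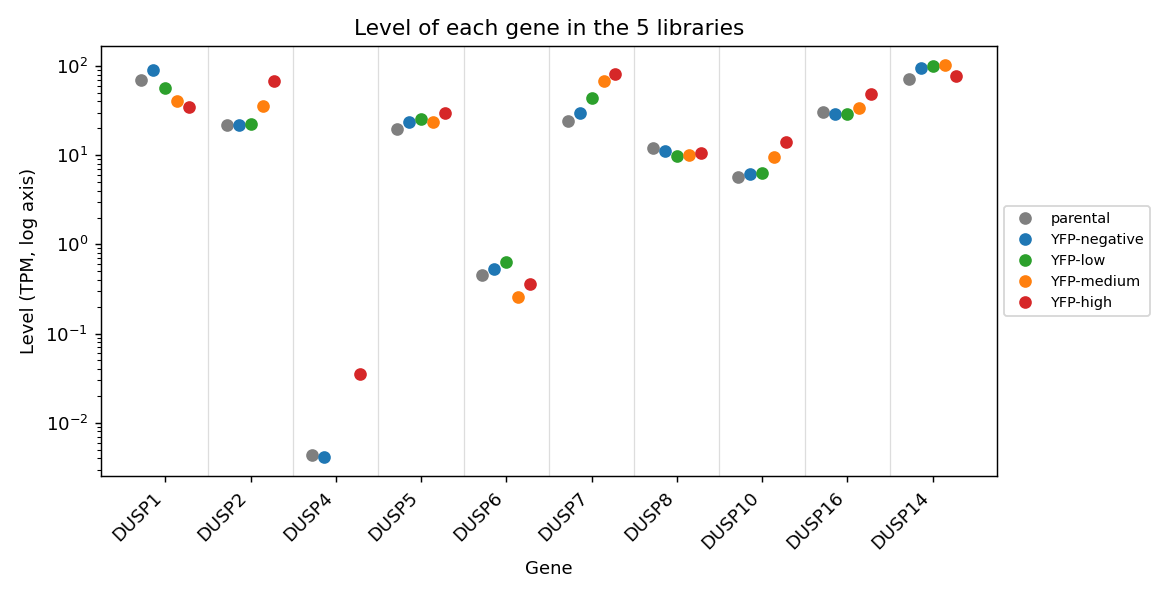
Level of each of the 10 phosphatase genes, in deposited TPM on a log axis, with 1 point for each of the 5 libraries; DUSP4 has no point in YFP-low and YFP-medium, where it had 0 reads. DUSP2, DUSP7, DUSP10 and DUSP16 step up from YFP-low to YFP-high, DUSP1 steps down from 89.0 TPM in YFP-negative to 34.5 TPM in YFP-high, and DUSP4 and DUSP6 lie far below the others.

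Of the nuclear inducible enzymes, DUSP1 is an immediate early gene whose product removes phosphate from p38, JNK and ERK. Its level was 71.1 CPM in YFP-negative and 46.1, 35.4 and 30.1 CPM across the low, medium and high gates, beside 55.8 CPM in parental cells. YFP-negative was the highest of all 5 libraries and the level went down at each gate, with parental between YFP-negative and YFP-low. Against YFP-negative it was 1.54-fold lower in YFP-low (1.48 to 1.61), 2.01-fold lower in YFP-medium (1.92 to 2.11) and, in YFP-high, 2.36-fold lower (2.24 to 2.49). The log2 ratio in YFP-medium, -0.996, stood just inside the 2-fold rule and was not called. The difference was already far along at the lowest gate, where DUSP1 had 50.5% of its YFP-high log2 ratio, and only 1.15% of all analysed genes had a lower ratio in YFP-low. In YFP-high 6.74% of genes did.

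The baseline matters for DUSP1. Against the parental library YFP-high was 1.85-fold lower (1.76 to 1.96) and so short of the 2-fold rule, parental cells holding less of it than YFP-negative cells. Total gene reads and the deposited TPM each put DUSP1 past 2-fold in that comparison and in YFP-medium against YFP-negative.

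DUSP2, first described in activated T cells and active on ERK and p38 in the nucleus, went the other way. Its level was 11.9 CPM in YFP-negative and 12.5, 21.0 and 40.7 CPM across the low, medium and high gates, beside 12.0 CPM in parental cells, from 949 to 2595 reads. The 3 libraries with the least E2F1 lay close together, and only YFP-medium and YFP-high stood above them. Against YFP-negative it was 1.05-fold in YFP-low, with an interval that includes no change (0.957 to 1.14), 1.76-fold in YFP-medium (1.62 to 1.91) and 3.42-fold in YFP-high (3.18 to 3.68). It had 3.65% of its YFP-high log2 ratio in YFP-low and 45.7% in YFP-medium, and the step from YFP-medium to YFP-high, 1.94-fold (1.82 to 2.07), was its steepest. In YFP-high 10.1% of analysed genes had a higher ratio than DUSP2.

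DUSP4, a nuclear phosphatase of ERK and JNK, had 1 read each in parental and YFP-negative cells, 0 in the low and medium gates, and 7 in the high gate. The 7 reads stand above the floor of 3 reads, which is 0.0471 CPM in YFP-high, and correspond to 0.11 CPM. The ratio of YFP-high to YFP-negative was 9.14, with an interval from 1.17 to 412 that shows how little 1 read fixes. At this depth DUSP4 mRNA was barely detectable in U2OS cells, with or without the fusion.

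DUSP5 holds ERK in the nucleus and dephosphorylates it. It stood at 21.0 CPM in YFP-negative and 22.9, 22.5 and 28.8 CPM across the low, medium and high gates, beside 17.3 CPM in parental cells. Parental was the lowest library and YFP-high the highest, while YFP-negative to YFP-medium spanned a narrow range. The ratio of YFP-high to YFP-negative was 1.37 (1.28 to 1.46), under the 2-fold rule but beyond counting error, while the small log2 ratio of YFP-medium to YFP-negative, 0.10 with TMM, was -0.01 with TPM and -0.11 with total gene reads. The nuclear group thus held 1 member called lower, 1 called higher, 1 with a smaller difference and 1 near 0.

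DUSP7, the cytoplasmic ERK phosphatase most like DUSP6, had the largest ratios upwards of all members in YFP-low and YFP-medium. Its level was 62.7 CPM in YFP-negative and 94.0, 155 and 188 CPM across the low, medium and high gates, beside 50.9 CPM in parental cells. The 5 libraries were in the order of E2F1, with the widest steps between YFP-negative and YFP-medium. Against YFP-negative it was 1.5-fold in YFP-low (1.45 to 1.55), 2.47-fold in YFP-medium (2.39 to 2.55) and 3.00-fold in YFP-high (2.90 to 3.10). DUSP7 was the only member called in YFP-medium, where 9.75% of all analysed genes were called higher and 2.25% lower. Of all calls in that comparison 81.3% were higher, beside 58.0% with total gene reads and 71.3% with TPM. It had reached 36.8% of its YFP-high log2 ratio in YFP-low and 82.3% in YFP-medium, and its last step was 1.21-fold (1.18 to 1.25).

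DUSP6, the best-known feedback phosphatase of ERK, is induced by growth factor signalling in many tissues. It had 45 reads in YFP-negative and 51, 19 and 25 reads across the low, medium and high gates, beside 36 in parental cells, or 0.281 to 0.658 CPM. YFP-medium and YFP-high held the fewest reads. The ratio to YFP-negative was 0.519 in YFP-medium (0.287 to 0.906) and 0.726 in YFP-high (0.426 to 1.21), so the difference in YFP-high was not detectable at this depth. DUSP7 thus held nearly all reads of the cytoplasmic pair.

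Of the JNK and p38 phosphatases, DUSP10 acts on both kinases. Its level was 7.43 CPM in YFP-negative and 7.69, 12.3 and 18.7 CPM across the low, medium and high gates, beside 6.87 CPM in parental cells. As for DUSP2, the first 3 libraries lay together and the upper gates stood apart. Against YFP-negative the fold was 1.04 in YFP-low (0.924 to 1.16), 1.65 in YFP-medium (1.49 to 1.84) and 2.51 in YFP-high (2.28 to 2.78), with 3.71% and 54.0% of the YFP-high log2 ratio reached in YFP-low and YFP-medium.

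DUSP16, which shuttles between nucleus and cytoplasm and prefers JNK, was more abundant but less different. It stood at 70.0 CPM in YFP-negative and 71.9, 89.3 and 128 CPM across the low, medium and high gates, beside 74.6 CPM in parental cells. Only the 2 upper gates exceeded the parental level. The ratio of YFP-high to YFP-negative was 1.83 (1.77 to 1.89), just under the 2-fold rule.

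DUSP8, a phosphatase of JNK and p38 known best from brain and heart, was nearly flat. It stood at 18.8 CPM in YFP-negative and 17.0, 18.1 and 19.6 CPM across the low, medium and high gates, beside 20.5 CPM in parental cells. Parental was the highest library and YFP-low the lowest, with levels up slightly from YFP-low to YFP-high. The ratio of YFP-high to YFP-negative was 1.04 (0.966 to 1.12), and its direction turned with the scaling: the log2 ratio was 0.06 with TMM, -0.07 with TPM and -0.21 with total gene reads. The CRE motifs in the DUSP1 and DUSP8 windows shown above belong to a member called lower and to a member not called in any comparison. A part of the motif in these levels was not tested.

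DUSP14, the atypical enzyme, peaked in the middle of the series. Its level was 76.4 CPM in YFP-negative and 81.7, 87.5 and 67.5 CPM across the low, medium and high gates, beside 57.4 CPM in parental cells. From YFP-negative to YFP-medium the level went up, and in YFP-high it was below YFP-negative, though not below parental. It was 1.30-fold lower in YFP-high than in YFP-medium (1.25 to 1.35), the largest step downwards of the 8 members between these 2 libraries. The log2 ratio of YFP-high to YFP-negative was -0.18, or 1.13-fold lower (1.09 to 1.18), and the difference in YFP-medium turned with the scaling: the log2 ratio of YFP-medium to YFP-negative was 0.19 with TMM, 0.08 with TPM and -0.02 with total gene reads.

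**Figure D2:**
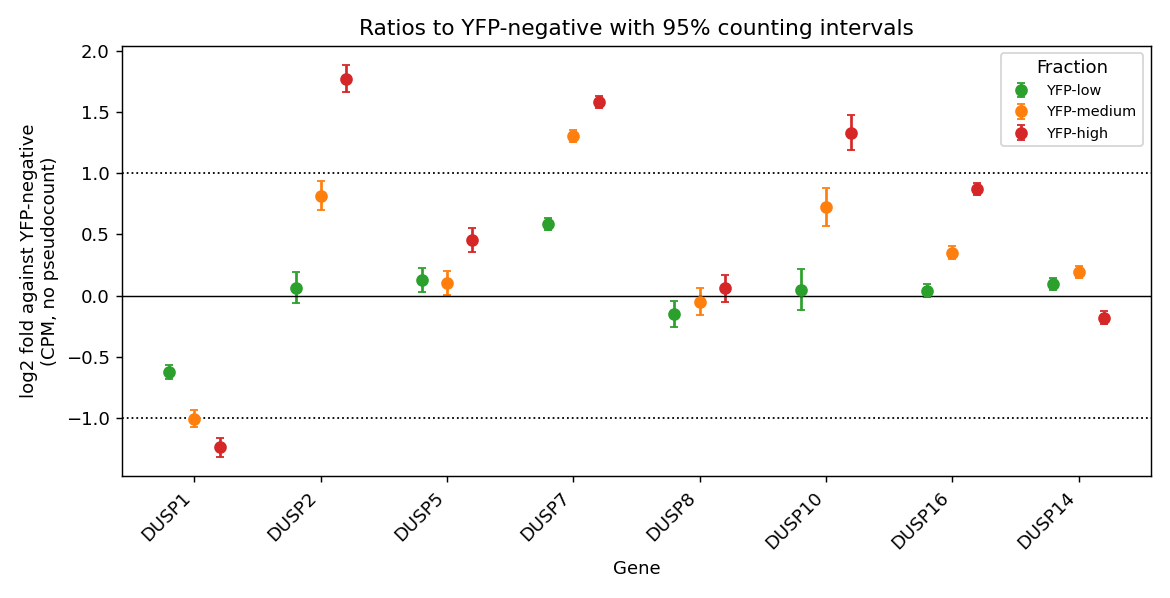
Log2 fold of YFP-low, YFP-medium and YFP-high over YFP-negative for the 8 analysed members, from CPM without a pseudocount, with exact 95% counting intervals as bars and dotted lines at 2-fold. In YFP-high, DUSP2, DUSP7 and DUSP10 lie above the upper line and DUSP1 below the lower one; in YFP-medium DUSP7 lies above the upper line and DUSP1 lies on the lower one.

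Between neighbouring gates no member was called. In YFP-low against YFP-negative, 0 of 8 were called in either direction, where 2.07% of all genes were called higher and 0.0596% lower. In YFP-medium against YFP-low the background was 2.74% higher and 0.185% lower, and the ratios nearest the rule were those of DUSP2 (1.68-fold), DUSP7 (1.65-fold) and DUSP10 (1.60-fold). In YFP-high against YFP-medium 9.17% of all genes were called higher and 1.31% lower, and DUSP2 came nearest with its 1.94-fold step.

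In the order of the gates, 4 of 8 members were higher at each of the 3 steps (DUSP2, DUSP7, DUSP10, DUSP16) and 1 was lower at each (DUSP1), with no minimum size for a step. Over all analysed genes 23.9% were higher and 28.2% lower at every step. With total gene reads only DUSP7 and DUSP1 kept an unbroken order. For DUSP2, DUSP10 and DUSP16 the step from YFP-negative to YFP-low had an interval that includes no change, 0.990 to 1.07 for DUSP16. The members differed in when they moved. DUSP1 and DUSP7 had reached 81.3% and 82.3% of their YFP-high log2 ratio in YFP-medium. DUSP2, DUSP10 and DUSP16 had reached 45.7%, 54.0% and 40.4%, and in YFP-low less than 5% of it.

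**Figure D3:**
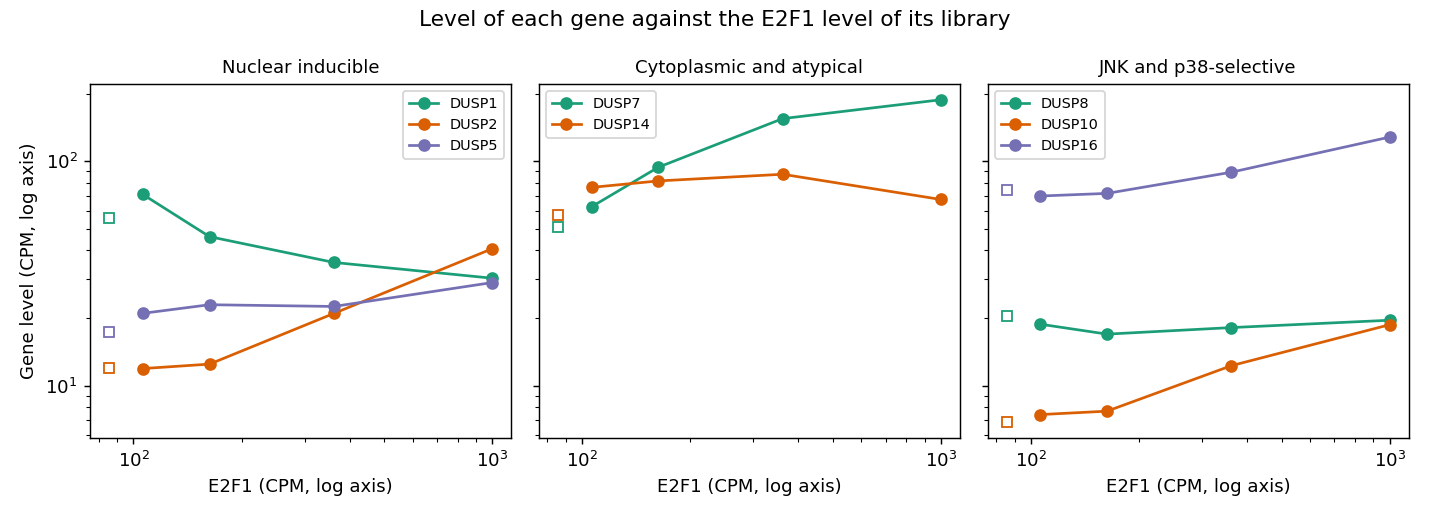
Level in CPM of the 8 analysed members, in 3 panels by group, against the E2F1 level in CPM of the same library, both on log axes; filled points, joined, are YFP-negative to YFP-high, and open squares are parental. DUSP1 and DUSP7 differ from the lowest gate on, whereas DUSP2, DUSP10 and DUSP16 stay nearly level up to 163 CPM of E2F1; heights of different genes are not comparable, since CPM is not corrected for length.

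The YFP-negative library shows how cells with the construct but without detectable YFP compared with cells that never had it. By title the former is a fraction and the latter only parental, and a part of sorting in their differences was not tested. In YFP-negative against parental, 0 of 8 members were called, where 2.21% of all genes were called higher and 2.85% lower. DUSP14 had the largest ratio, 1.33-fold (1.28 to 1.38), followed by DUSP1 at 1.27-fold (1.22 to 1.32), DUSP7 at 1.23-fold (1.18 to 1.28) and DUSP5 at 1.21-fold (1.13 to 1.30). These 4 were higher in YFP-negative beyond counting error, while DUSP2 (log2 ratio -0.01) and DUSP10 (0.10) had intervals that include no change. DUSP8 and DUSP16 were slightly lower, by 1.09-fold (1.02 to 1.17) and 1.07-fold (1.03 to 1.11).

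With parental as the baseline, YFP-high held the same 3 members called higher and none called lower, where 21.3% of all genes were called higher and 14.6% lower (59.3% of calls higher, beside 45.3% with total gene reads). DUSP7 was 3.69-fold (3.56 to 3.82), DUSP2 3.40-fold (3.16 to 3.67) and DUSP10 2.72-fold (2.45 to 3.01). DUSP16 and DUSP5 followed at 1.72-fold and 1.66-fold. DUSP7 led here and DUSP2 led against YFP-negative. The comparisons against YFP-negative share that library, and both comparisons of YFP-high share the YFP-high library, so their values stand side by side and do not support each other.

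Levels of different genes can be compared only per length, for which the deposited TPM (transcripts per 1000000, corrected for length by the authors) was used. In YFP-negative the most abundant member was DUSP14 at 95.6 TPM, followed by DUSP1 at 89.0 TPM. DUSP7 (29.5 TPM), DUSP16 (28.6 TPM), DUSP5 (23.6 TPM) and DUSP2 (21.9 TPM) formed a middle group, above DUSP8 (11.1 TPM) and DUSP10 (6.16 TPM). Parental and YFP-low cells had the same leading pair.

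In YFP-high the order was different. DUSP7 led at 80.9 TPM, followed by DUSP14 at 77.2 TPM and DUSP2 at 68.3 TPM, then DUSP16 at 48.0 TPM and DUSP1 at 34.5 TPM. DUSP6 and DUSP4 were last in all 5 libraries, at no more than 0.638 TPM and 0.0351 TPM. The leading member thus changed from the atypical DUSP14 to the cytoplasmic ERK phosphatase DUSP7, and DUSP1 went from the second place to the fifth.

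The summed level of the 10 genes was 306 TPM in YFP-negative and 293, 322 and 364 TPM across the low, medium and high gates, beside 255 TPM in parental cells. Within that sum DUSP1 made up 29.1% in YFP-negative and 19.3%, 12.7% and 9.48% across the low, medium and high gates, beside 27.3% in parental cells. DUSP7 went from 9.63% in YFP-negative to 22.3% in YFP-high, and DUSP2 from 7.15% to 18.8%. By group, the cytoplasmic pair went from 9.80% to 22.3% of the sum, with 9.55% in parental. The JNK and p38 phosphatases held 15.0% in YFP-negative and 20.0% in YFP-high, but already 18.9% in parental. The nuclear group held 43.9% in YFP-negative and 35.5%, 31.0% and 36.4% across the low, medium and high gates, so its share was lowest in YFP-medium. Its summed level was nearly equal at both ends, 134 TPM in YFP-negative and 132 TPM in YFP-high, with DUSP2 in place of DUSP1 as its most abundant member. The TPM values are the same reads divided by length and are not a separate measurement: for 97.0% of 14781 genes with at least 20 reads in each library, TPM per read was constant within 1% after scaling.

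**Figure D4:**
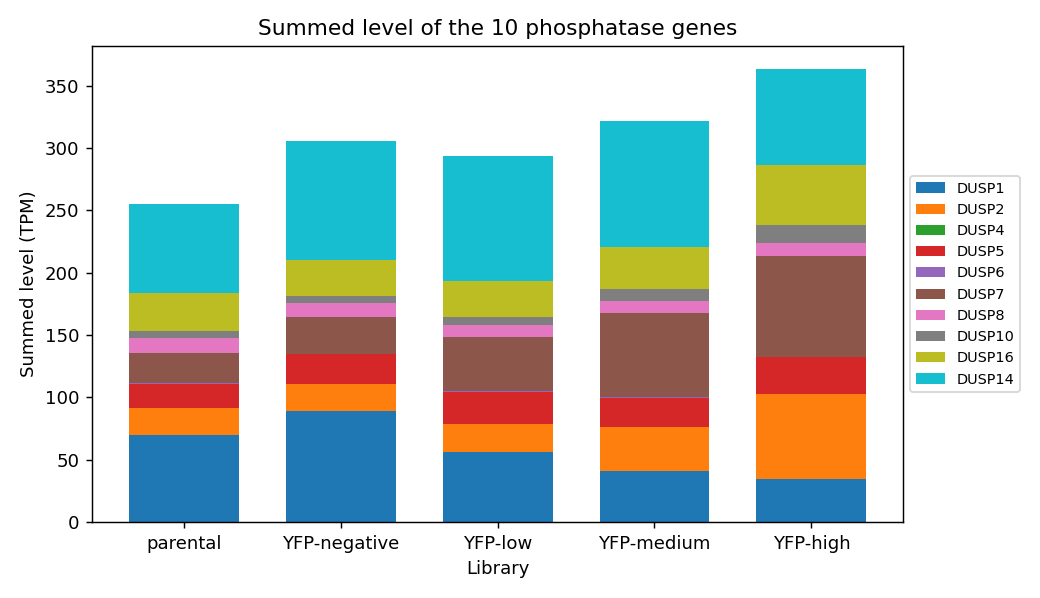
Summed TPM of the 10 phosphatase genes in each of the 5 libraries as stacked bars, each colour 1 gene. The sum runs from 255 TPM in parental to 364 TPM in YFP-high, with the DUSP1 segment shrinking from YFP-negative to YFP-high and the DUSP7 and DUSP2 segments widening.

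To see which other genes had the same profile, the log2 ratios of the 4 other libraries to YFP-negative were compared. The comparison covered 12266 genes with at least 5 CPM, by total gene reads, in a library. Distances are root mean square differences in log2 units. Nearest to DUSP2 were AVPI1 (0.04), ZFP28 (0.06) and LRRC1 (0.07). AVPI1 stood at 10.8 CPM in parental and 10.7 CPM in YFP-negative cells, and at 18.5 and 38.2 CPM in the medium and high gates, level at first and then up, as DUSP2 was. Nearest to DUSP7 were DTNB, SENP3 and FAM76B (each 0.04), and nearest to DUSP10 were PID1 (0.04), KIAA0284 (0.05) and LRIG1 (0.06). DUSP2 and DUSP10 were each other's nearest member, at 0.24, but 182 genes lay nearer to DUSP2 and 427 nearer to DUSP10. DUSP7 had 843 genes nearer than its nearest member, DUSP2 (0.40). With 4 ratios per gene and a shared baseline, close profiles are common and describe these libraries only.

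Of the kinases and adaptors that these phosphatases oppose, 26 of 27 ERK cascade genes were analysed. In YFP-high against YFP-negative 3 of 26 were called higher and 1 lower, both under the shares of 20.3% and 11.3% over all analysed genes, and the median log2 ratio was 0.49. RPS6KA5, a nuclear kinase activated by ERK and p38 that phosphorylates CREB, was 3.50-fold (3.11 to 3.93), RPS6KA3, an ERK-activated ribosomal S6 kinase, 2.80-fold (2.72 to 2.89) and MAPK3, which encodes ERK1, 2.06-fold (1.96 to 2.17). RPS6KA2, another ribosomal S6 kinase, was 2.20-fold lower (1.95 to 2.49). With total gene reads MAPK3 was no longer called, SHC1 and RASA1 were called lower, and the median was 0.22; the deposited TPM gave the same calls. Of 13 JNK and p38 pathway genes, 0 were called in either direction, where 20.3% of all genes were called higher and 11.3% lower, and the median was -0.16. MAPK11, a p38 kinase, came nearest at 2.00-fold (1.91 to 2.11) and was called higher with DESeq2 size factors.

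Of 21 analysed genes that ERK signalling induces, or that feed back on it, 4 were called higher in YFP-high (FOS, EGR1, EGR3, SPHK1) and 7 lower (SPRED3, ETV1, FOSL1, EPHA2, EPHA4, MYC, PLAUR), with a median log2 ratio of -0.39. The 4 are near the all-gene share of 20.3% called higher, and the 7 are above the share of 11.3% called lower. SPHK1, a lipid kinase, went from 51.2 CPM in YFP-negative to 285 CPM in YFP-high, 5.57-fold (5.39 to 5.76). EGR1, an immediate early transcription factor, went from 113 CPM to 380 CPM, 3.35-fold (3.27 to 3.43). EPHA2, a receptor tyrosine kinase, was 3.18-fold lower (3.09 to 3.28) and MYC 2.71-fold lower (2.61 to 2.82). Genes of this list that are known to be induced early by growth factors, as DUSP1 is, were thus called in both directions, with FOS, EGR1 and EGR3 higher and MYC and FOSL1 lower.

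Among 12 analysed genes of the dual-specificity phosphatase family outside the 10 members, 1 was called higher in YFP-high (DUSP9) and 1 lower (DUSP27). Both were under the all-gene shares of 20.3% and 11.3%, and the median log2 ratio of the 12 was -0.11. DUSP9 is the third cytoplasmic ERK phosphatase beside DUSP6 and DUSP7. It stood at 8.30 CPM in YFP-negative and 11.9, 17.3 and 51.4 CPM across the low, medium and high gates, beside 10.5 CPM in parental cells, most of the difference falling in the last gate. At 6.19-fold over YFP-negative (5.70 to 6.72) and 4.88-fold over parental (4.52 to 5.27) its ratio exceeded that of each of the 8 analysed members. Its level in YFP-high was 51.0 TPM, between DUSP2 and DUSP16.

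Of 8 other phosphatases that act on MAP kinases, 3 were called higher (PPM1D, PTPN5, PPP2CA) and 1 lower (PTPRR), where 20.3% of all genes were called higher and 11.3% lower, and the median log2 ratio was 0.52. PPM1D, a p53-induced phosphatase of p38, stood at 73.2 CPM in YFP-negative and 162, 303 and 375 CPM across the low, medium and high gates, beside 99.9 CPM in parental cells, 5.12-fold over YFP-negative (4.98 to 5.27). PPP2CA, the catalytic subunit of protein phosphatase 2A, was 2.40-fold (2.34 to 2.46), a call lost with total gene reads. PTPRR, a tyrosine phosphatase of ERK, stood at 15.0 CPM in YFP-negative and 13.1, 9.24 and 3.06 CPM across the low, medium and high gates, beside 5.31 CPM in parental cells. It was 4.92-fold lower in YFP-high than in YFP-negative (4.22 to 5.75), but also low in parental cells.

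**Figure D5:**
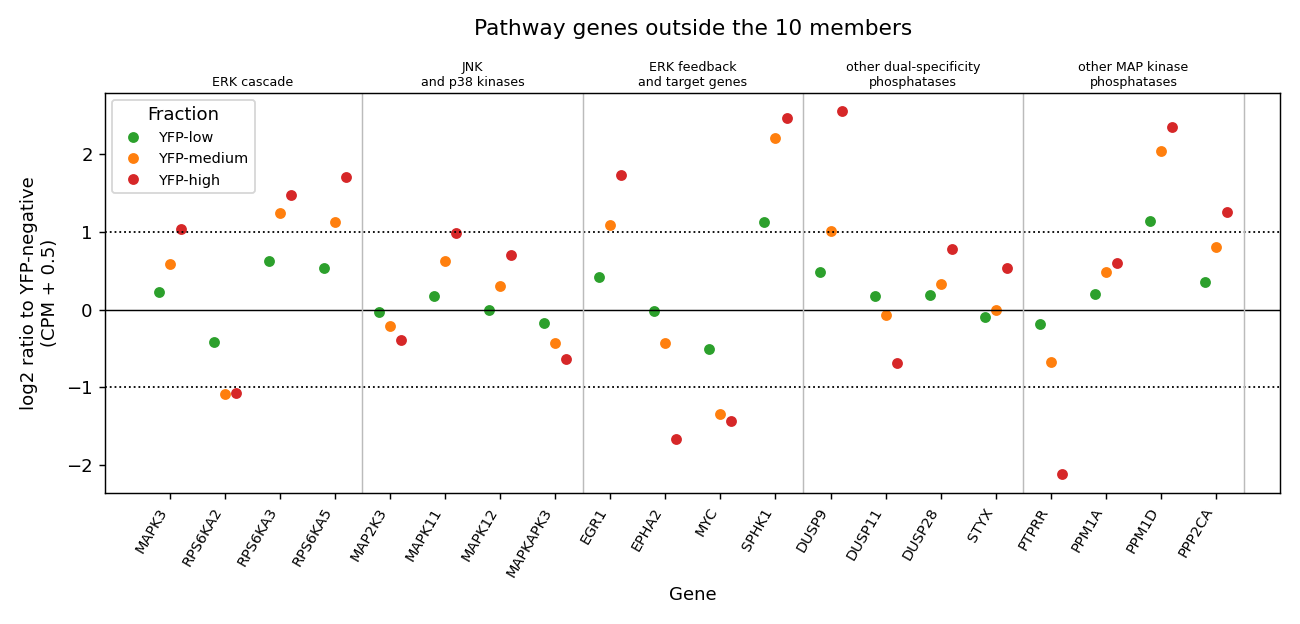
Log2 ratio to YFP-negative, from CPM with 0.5 added, in YFP-low, YFP-medium and YFP-high for up to 4 genes of each of the 5 pathway lists, those with the largest ratios in YFP-high and at least 5 CPM; dotted lines mark 2-fold and points carry no interval. SPHK1, DUSP9 and PPM1D stand highest in YFP-high, at 2.47, 2.56 and 2.35, and PTPRR lowest at -2.13.

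In the GENCODE annotation, release 29, a gene on the opposite strand overlaps DUSP1, DUSP6, DUSP8 and DUSP16. None of these partners has a row under its release 29 name in the count table. The counting used build hg19 with an annotation that is not given, so a partner may be counted under another name. The sources used here do not give the strand setting of the counting, so reads of a partner counted with the phosphatase gene cannot be told apart from its own. DUSP5P, a pseudogene of DUSP5, is counted under its own name. No overlap was found for DUSP2, DUSP7 and DUSP10, the members called higher, nor for DUSP4, DUSP5 and DUSP14, none of them called.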

How the data were processed

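RNA was sequenced in 5 U2OS libraries. The authors deposited whole-number read counts per gene name and TPM values. The sources used here do not give the TPM tool, the gene annotation or the strand setting. Tools in the submitters' processing notes are HTSeq 0.6.0, HISAT2 2.0.3 and Trimmomatic 0.36, with CASAVA 1.8.2 and bcl2fastq, and the build is hg19. Rows naming no gene were left out. Gene rows held 75.7% to 77.7% of the reads of all rows, those naming no gene included. A row called unknown held at most 0.000964% as many reads as the gene rows. HTSeq drops reads that 2 genes share, which lowers overlapping genes.

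Counts were scaled with TMM (edgeR 4.0.16 under R 4.3.3; factors 0.901 to 1.09, YFP-negative as reference, genes reaching 1 CPM in any library). Log2 ratios used 0.5 CPM as a pseudocount and understate low genes. Folds used none and carry exact 95% Clopper-Pearson intervals on both counts given their total. Intervals and the floor of 3 reads (0.0361 to 0.0471 CPM) cover counting error only, and PCR copies are not independent molecules. The design, 1 library per group, allows no test between samples. The rule was also run on simulated counts that held counting error only. That run has no spread between replicate libraries, so it cannot show how the calls would fare under it. Other software was scipy 1.17.1, pandas 2.3.3, numpy 2.4.6 and matplotlib 3.10.9 under Python 3.11.15.

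The members and lists were chosen with earlier results of these data known. Named genes are the 10 members, E2F1, up to 4 genes per list with the largest ratio in YFP-high and at least 5 CPM, and the 3 genes nearest in profile to each of 3 members. Other genes named in counts were named after their values were seen. Each count was repeated with total counts, with size factors from DESeq2 1.42.0, with a filter of 5 CPM or none, with a pseudocount of 2 CPM, with deposited TPM, and with a 1.5-fold rule.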

Additional observations from a re-analysis of the deposited data

How the results depend on the processing

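Of 104 alternative counts of members, 92 stayed within 1.5 times the reported count and 12 did not. Under the 1.5-fold rule, 2 members were higher in YFP-high against YFP-medium (DUSP2, DUSP10), 5 in YFP-high against parental (DUSP2, DUSP5, DUSP7, DUSP10, DUSP16), and 3 each in YFP-medium against YFP-low and against YFP-negative (DUSP2, DUSP7, DUSP10), and 1 was lower (DUSP1) in YFP-low against YFP-negative, YFP-medium against YFP-negative and YFP-high against parental. Under total gene counts and under deposited TPM, 1 member (DUSP1) was lower in YFP-medium against YFP-negative and in YFP-high against parental. Under total gene counts 2 members kept their order along the gates, where TMM gave 5. The looser rule makes the first set of changes by construction; total counts shift the median of all genes in YFP-high against YFP-negative by -0.26 and in YFP-medium by -0.20, and TPM by -0.12 and -0.10. Over all genes, 784 were called lower in YFP-medium against YFP-negative with total counts and 339 with TMM, and 2865 and 1710 in YFP-high. In YFP-low 16 were called lower with total counts, 22 with TPM and 9 with TMM.

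No called value of a member reversed under any alternative. Of 56 log2 ratios per setting, 10 uncalled ones changed sign with total counts and 2 with TPM. DESeq2 size factors moved no ratio by more than 0.0364. In YFP-high against YFP-negative under total counts, the log2 ratio was -1.49 for DUSP1, 1.47 for DUSP2 and 1.31 for DUSP7.

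No paired analysis was possible because each group has 1 library, and leaving out a library would leave a group empty. Depth limits DUSP4 and DUSP6, whose reads numbered at most 7 and 51.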

Other observations

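Some ERK feedback and target genes differed between YFP-negative and parental cells. Of 21 analysed, 6 were called higher in YFP-negative (SPRED3, ETV1, ETV4, ETV5, FOSL1, SPHK1; ETV1 not with deposited TPM) and 1 lower (PHLDA1), where 2.21% and 2.85% of all analysed genes were called higher and lower, and the median log2 ratio was 0.48. ETV1, ETV4, ETV5 and FOSL1 are transcription factors, SPRED3 belongs to a family of ERK pathway inhibitors, and SPHK1 is a lipid kinase. These names were given after their values were seen. SPHK1 stood at 19.8 CPM in parental and 51.2 CPM in YFP-negative, 2.59-fold (2.44 to 2.75). PTPRR, which lies outside that list, was 2.83-fold higher in YFP-negative (2.54 to 3.17). Against parental, YFP-high held 7 of the 21 genes called higher and 3 lower, with a median of -0.08.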
